A study of Mus musculus with 2 samples.

Results

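The genes described here are 10 genes that lipid-handling macrophages use: Apoe, Trem2, Lpl, Gpnmb, Fabp5, Spp1, Plin2, Abca1, Abcg1 and Lgals3. They were taken by symbol, and each matched 1 of the 32285 genes of the count matrices. Leukocytes from hand-picked pancreatic islets of female mice were sorted as live cells with CD45, a leukocyte marker, and without CD31, an endothelial marker, and their transcripts were counted cell by cell, in droplets, from the 3′ end. One group is WT NOD, a mouse strain that develops autoimmune diabetes, and the other is NOD.Cxcl16-/-, labelled as lacking the chemokine and scavenger receptor gene Cxcl16. All mice were 12 weeks old, each group has 1 library, and the labels do not give the number of mice behind it. With no replicate, no difference below was tested and no p-value is given. Values given as a pair have WT NOD first and the library labelled NOD.Cxcl16-/- second. All intervals are at the 95% level and cover counting error only.

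Macrophages take up lipoproteins and dying cells, break down the lipids in lysosomes, store the surplus in droplets and export cholesterol. Apolipoprotein E, made by Apoe, carries lipids and is a ligand of TREM2, a receptor on myeloid cells that signals through the adaptor TYROBP. Macrophages that express many of these genes together have been described in fat tissue, atherosclerotic plaques and the diseased brain. ABCA1 and ABCG1 pump cholesterol out of the cell and, like Apoe, are induced by the sterol-sensing liver X receptors.

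The promoters of the genes on which the results turn are shown here, because Apoe and Abca1 were each the gene most like the other over cell groups, Trem2 differed most between the libraries among the members above the level filter, and Spp1 came mostly from cells other than macrophages. Sequences come from RefSeq on build GRCm38.p6, in which 7 of the 10 members were found, and each line gives the 250 bases before the transcription start, 5′ to 3′ on the gene's strand. Capitals mark matches, on either strand, to 4 motifs: GAGGAA (the core bound by the myeloid factor PU.1), TGACTCA (AP-1), CACGTG (E-box) and AGGTCA (a nuclear receptor half-site).
Apoe, chr7:19699189-19699438, minus strand: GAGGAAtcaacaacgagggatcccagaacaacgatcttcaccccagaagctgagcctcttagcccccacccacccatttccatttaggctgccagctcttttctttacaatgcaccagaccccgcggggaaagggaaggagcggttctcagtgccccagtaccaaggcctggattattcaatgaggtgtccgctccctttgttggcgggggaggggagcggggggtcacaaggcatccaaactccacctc
Abca1, chr4:53159896-53160145, minus strand: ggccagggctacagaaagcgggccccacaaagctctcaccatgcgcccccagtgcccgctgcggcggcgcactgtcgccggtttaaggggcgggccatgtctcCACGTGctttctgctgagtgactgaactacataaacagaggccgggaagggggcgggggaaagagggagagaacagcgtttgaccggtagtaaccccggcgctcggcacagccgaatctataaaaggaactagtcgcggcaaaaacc
Trem2, chr17:48346151-48346400, plus strand: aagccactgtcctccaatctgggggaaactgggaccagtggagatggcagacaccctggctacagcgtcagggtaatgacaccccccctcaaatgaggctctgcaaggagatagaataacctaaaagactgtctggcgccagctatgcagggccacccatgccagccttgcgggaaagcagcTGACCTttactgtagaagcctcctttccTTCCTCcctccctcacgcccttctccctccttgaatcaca
Spp1, chr5:104434861-104435110, plus strand: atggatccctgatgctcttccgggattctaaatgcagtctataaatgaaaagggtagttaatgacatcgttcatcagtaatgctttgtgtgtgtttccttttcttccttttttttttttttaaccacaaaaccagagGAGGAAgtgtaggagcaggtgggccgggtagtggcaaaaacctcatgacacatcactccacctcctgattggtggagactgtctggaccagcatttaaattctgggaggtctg
GAGGAA or its reverse complement was found in 3 of the 7 members (Apoe, Trem2 and Spp1), against 23.3% of all 32851 promoters. AGGTCA was found in 2 (Trem2 and Plin2) against 14.0%, CACGTG in 1 (Abca1) against 6.02%, and TGACTCA in none against 4.46%. A match is a string of letters in this window and not a measured binding site.

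Of 13859 and 10554 barcodes, 12252 and 10214 were kept, at median depths of 4269 and 5189 unique molecular identifiers (UMIs, counted transcript molecules). The 2 libraries shared 45 barcode sequences. Cell groups, called gates, were set from UMIs of marker genes, with none of the 10 genes among them. The macrophage gate needed at least 10 UMIs of the complement genes C1qa, C1qb and C1qc and at most 2 of each other lineage's markers. It held 60 and 136 cells, at medians of 12400 and 12162 UMIs. All 10 genes of a macrophage marker list, the C1q genes among them, had UMIs there. C1qa stood at 5953 and 7431 CPM (UMIs of a gene scaled to 1000000 UMIs of the gate), against 3.58 and 5.27 CPM in T-gate cells. Cxcl16 was counted at 103 and 102 CPM over all barcodes and at 887 and 533 CPM in the macrophage gate, so the second library is called here by its label. The labels do not say which part of the gene was deleted, and a 3′ read outside it would check nothing.

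Apoe, Trem2 and Gpnmb, 3 of the 10, were highest in the macrophage gate in both libraries. The count was 5 with double the marker UMIs and 1 when barcodes with another lineage were kept in the gates. The share of all genes that were highest there was not counted, so the count describes these members only. Fabp5 was highest in migratory dendritic cells, Lgals3 in monocytes and Abcg1 in natural killer (NK) cells, again in both. The intervals of the first and second gate overlapped for Abcg1 in both libraries and for Lgals3 in the WT NOD library. Spp1, Lpl, Plin2 and Abca1 had no gate that led in both libraries. Apoe was separated from its next gate beyond the counting intervals in both libraries and Trem2 only in the library labelled NOD.Cxcl16-/-, while for Gpnmb the intervals overlapped in both.

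**Figure D1:**
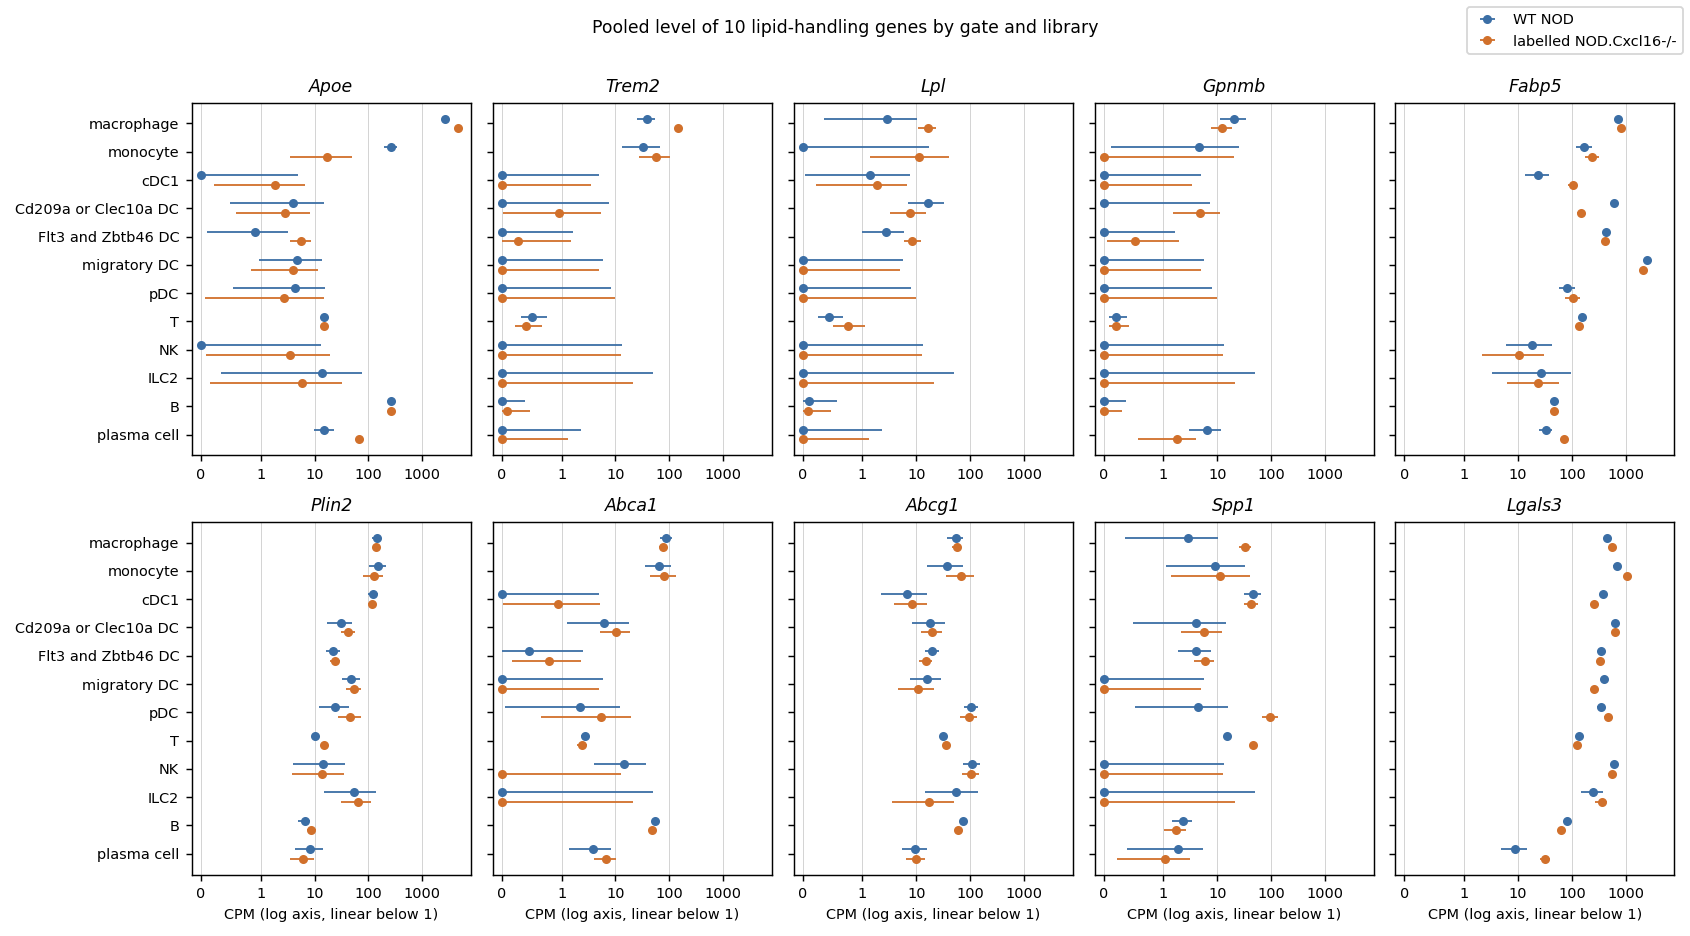
Level of each gene (CPM, log axis that is linear below 1) in 12 gates, for the WT NOD library (blue) and the library labelled NOD.Cxcl16-/- (orange), with exact Poisson intervals. Apoe and Trem2 are high in the macrophage row and low in dendritic rows, Fabp5 peaks in migratory dendritic cells, and Abcg1 has its highest points in NK and plasmacytoid dendritic (pDC) rows.

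Apoe (ENSMUSG00000002985, chr7:19696109-19699188 on GRCm38, minus strand) encodes the lipid carrier of lipoproteins. Macrophages held 2645 CPM (2525 to 2769) and 4622 CPM (4521 to 4724) of it. B cells came next, at 265 and 263 CPM, almost the same in the 2 libraries. Monocytes stood at 258 and 17 CPM, but 62.5% of their 56 UMIs in the WT NOD library came from 1 of 24 cells. All 5 dendritic gates stood at 5.57 CPM or below. T cells stood at 14.7 and 14.8 CPM, and without the highest barcode of each library at 10.1 and 7.0 CPM. The highest T-gate barcode of the library labelled NOD.Cxcl16-/- held 288 of 547 Apoe UMIs together with 50 UMIs of Dcn, a fibroblast gene, and 0 of Cd3e.

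Trem2 (ENSMUSG00000023992, chr17:48346401-48354147, plus strand), the lipid-sensing receptor, stood above 1 CPM in 2 of the 12 gates, macrophages and monocytes. Macrophages stood at 37.8 CPM (24.7 to 55.4; 26 UMIs) and 147 CPM (129 to 166; 254 UMIs). Monocytes stood at 32.3 CPM (13.0 to 66.6; 7 UMIs) and 56.7 CPM (27.2 to 104; 10 UMIs). No other of these gates passed 0.95 CPM in either library. Over all dendritic gates 0 and 2 UMIs were counted, and 0 UMIs in 395 cells allow a level of up to 0.660 CPM.

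Lpl and Gpnmb had the fewest UMIs, 82 and 191 for Lpl and 104 and 113 for Gpnmb over all kept cells. Lpl (ENSMUSG00000015568, chr8:68880491-68907448, plus strand) encodes lipoprotein lipase, which releases fatty acids from lipoproteins. It stood at 2.91 CPM (2 UMIs) and 16.2 CPM (28 UMIs) in macrophages, and at 16.3 and 7.60 CPM in dendritic cells with Cd209a or Clec10a. Gpnmb (ENSMUSG00000029816, chr6:49036546-49070929, plus strand) encodes a membrane glycoprotein of lysosome-rich macrophages. It stood at 20.3 CPM (11.1 to 34.1; 14 UMIs) and 12.1 CPM (7.52 to 18.6; 21 UMIs) in macrophages, and no Gpnmb UMI was counted in B cells of either library, which allows up to 0.311 and 0.254 CPM.

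Fabp5 (ENSMUSG00000027533, chr3:10012548-10016607, plus strand), a cytosolic fatty acid carrier, and Plin2 (ENSMUSG00000028494, chr4:86648386-86670060, minus strand), a coat protein of lipid droplets, had different distributions. Migratory dendritic cells held Fabp5 at 2452 CPM (2332 to 2576) and 2048 CPM (1947 to 2154), above the macrophage levels of 725 CPM (663 to 792) and 832 CPM (790 to 876). Fabp5 was detected in 37 of 48 and 40 of 54 migratory dendritic cells, with 50% of the UMIs in 7 cells of each library. Plin2 stood at 142 CPM (116 to 174) and 138 CPM (121 to 156) in macrophages. Monocytes (152 and 125 CPM) and type 1 conventional dendritic cells (cDC1; 121 and 117 CPM) had overlapping intervals with them, so these 3 gates were not separated. T and B cells held 6.53 to 14.7 CPM of Plin2.

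The 2 cholesterol transporters differed from each other by gate. Abca1 (ENSMUSG00000015243, chr4:53030787-53159895, minus strand) stood at 88.7 CPM (67.8 to 114) and 75.8 CPM (63.4 to 89.9) in macrophages, at 64.6 and 79.4 CPM in monocytes and at 53.5 CPM (49.0 to 58.3) and 47.2 CPM (43.4 to 51.3) in B cells. It was scarce in T cells, at 2.74 and 2.43 CPM, and in every dendritic gate, at 10.4 CPM or below. Abcg1 (ENSMUSG00000024030, chr17:31057675-31117988, plus strand) was highest in NK cells, at 109 and 104 CPM, and in plasmacytoid dendritic cells (pDC), at 103 and 94.6 CPM. Macrophages held 53.8 CPM (37.9 to 74.1) and 56.7 CPM (46.0 to 69.1) of Abcg1, with intervals that overlapped those of B cells (72.6 and 60.2 CPM), and T cells held 30.9 and 35.7 CPM. Both were present in the macrophage and B gates. Of the pair, Abca1 was the lower in T cells and in NK cells, where it stood at 14.5 and 0 CPM (4 and 0 UMIs).

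Spp1 (ENSMUSG00000029304, chr5:104435118-104441050, plus strand) encodes osteopontin, a secreted matrix and cytokine-like protein, and Lgals3 (ENSMUSG00000050335, chr14:47367751-47386160, plus strand) encodes galectin-3, a sugar-binding protein. Spp1 stood at 2.91 CPM (0.352 to 10.5; 2 UMIs) and 33.5 CPM (25.5 to 43.4; 58 UMIs) in macrophages. The cDC1 gate held more of it in the WT NOD library, 46.3 CPM (32.1 to 64.8), and a like amount in the other, 43.0 CPM (31.5 to 57.4). The pDC gate of the library labelled NOD.Cxcl16-/- read 97.3 CPM, but all 36 UMIs came from 1 of 43 barcodes. That barcode also held 66 UMIs of Krt8, 82 of Krt18 and 23 of Epcam, which are epithelial genes. Lgals3 was broadly expressed, at 678 and 1055 CPM in monocytes and 633 and 625 CPM in dendritic cells with Cd209a or Clec10a. NK cells held 618 and 546 CPM of it, macrophages 456 CPM (407 to 510) and 545 CPM (511 to 581), and T cells 135 and 124 CPM.

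Taking T, NK, type 2 innate lymphoid (ILC2), B and plasma cells together as the lymphoid gate, 5 of the 8 members with a mean level of at least 20 CPM were 4-fold or more higher in macrophages in both libraries with 1 CPM added to each level. Folds are printed here without the added CPM. The share among all 5690 genes tested this way was 8.01%. The mean was taken over both gates and both libraries, so a gene could pass by its macrophage level alone, which favours the call. Trem2 (0.397 and 0.307 CPM), Plin2 (9.69 and 13.1 CPM) and Abca1 (11.7 and 12.8 CPM) were under 20 CPM in the lymphoid gate and passed in this way. The 5 were Apoe (45.5-fold and 62.5-fold), Trem2 (95.2-fold and 479-fold), Fabp5 (5.60-fold and 7.62-fold), Plin2 (14.7-fold and 10.5-fold) and Abca1 (7.61-fold and 5.92-fold). Lgals3 was 3.67-fold and 5.03-fold higher, and so past the line in 1 library only. Abcg1 was 1.42-fold and 1.41-fold higher. Spp1 was at 0.230 (0.0278 to 0.833) and 0.989 (0.748 to 1.28) times the lymphoid level, so macrophages did not lead for this gene in either library.

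Most UMIs of the macrophage-typical members lay outside the exclusive macrophage gate. Of 263 and 537 barcodes with high C1q UMIs, 203 and 401 also held over 2 UMIs of another lineage's markers, mostly those of T cells, at median depths of 30360 and 27714 UMIs. These mixed barcodes held 63.6% and 63.4% of all Apoe UMIs and 67.8% and 69.7% of all Trem2 UMIs. The macrophage gate itself held 9.78% and 20.5% of Apoe and 11.2% and 24.3% of Trem2. For Spp1 the T gate held the largest part, 53.6% and 56.7%, against 0.159% and 1.88% in macrophages. For Abca1 the largest part was in B cells, 42.7% and 34.7%, and for Fabp5 and Lgals3 the T gate held 24.5% to 37.4%. The macrophage gate held at most 8.14% of Fabp5, Plin2, Abca1, Abcg1 or Lgals3 in either library.

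Within the macrophage gate, the members differed by degree in how far their UMIs were spread over the cells. Plin2, Abca1, Abcg1 and Lgals3 were detected in 0.773 to 0.921 times as many cells as their UMIs would reach if shared out by each cell's depth, where the median gene reached 0.942 and 0.934. Apoe was detected in 31 of 60 cells (51.7%, 38.4 to 64.8) and 103 of 136 cells (75.7%, 67.6 to 82.7), although its UMIs shared by depth would have reached nearly all. With every cell thinned to 2000 UMIs the shares were 43.6% and 67.9%, with 5 shallower cells left out of each library, against 1.37% and 1.5% of T-gate cells. Against sharing by depth Apoe stood at 0.518 and 0.757, the second value near the lowest of the 4 genes above. In the WT NOD library 4 cells held 50% of the Apoe UMIs, and in the other library 16 cells did. In the library labelled NOD.Cxcl16-/- the top 5% of cells held 29.4% of Apoe UMIs and 30.7% of Trem2 UMIs. The median gene stood at 32.1% there. The highest 4 WT NOD cells held 389, 252, 178 and 159 UMIs, while the median cell held 1 UMI, against 15 UMIs in the median cell of the other library.

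Other members lay in fewer cells still. Among members with at least 20 UMIs in the gate, the top 5% of cells held over 50% of the UMIs of 2 of 7 members in the WT NOD library (Trem2 and Fabp5) and of 4 of 10 in the other (Lpl, Gpnmb, Fabp5 and Spp1). Among all genes with as many UMIs, 1.81% of 4093 and 8.16% of 6664 were so concentrated. Fabp5 had 50% of its UMIs in 3 and 4 cells, and its highest cells held 132 and 252 UMIs. Those cells held Lyz2, the lysozyme gene of macrophages and monocytes, at 36067 and 24031 CPM, against 7896 and 7358 CPM in the others. Spp1 in the library labelled NOD.Cxcl16-/- was found in 9 of 136 cells, and 2 cells held 50% of its 58 UMIs. Gpnmb had 10 of 14 UMIs in its highest WT NOD cell and 8 of 21 in the highest cell of the other library. Trem2 was found in 12 of 60 cells (interval 10.8% to 32.3%) and 68 of 136 cells (interval 41.3% to 58.7%), against 0.219% and 0.216% of T-gate cells at median depths of 4240 and 4823 UMIs. A gene with few UMIs can look concentrated by counting alone. After thinning to 2000 UMIs the count of concentrated members was 1 in each library. The minimum of 20 UMIs was kept after thinning, so members with few UMIs could leave the count by this rule alone. The thinned count therefore does not show whether those members were concentrated.

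**Figure D2:**
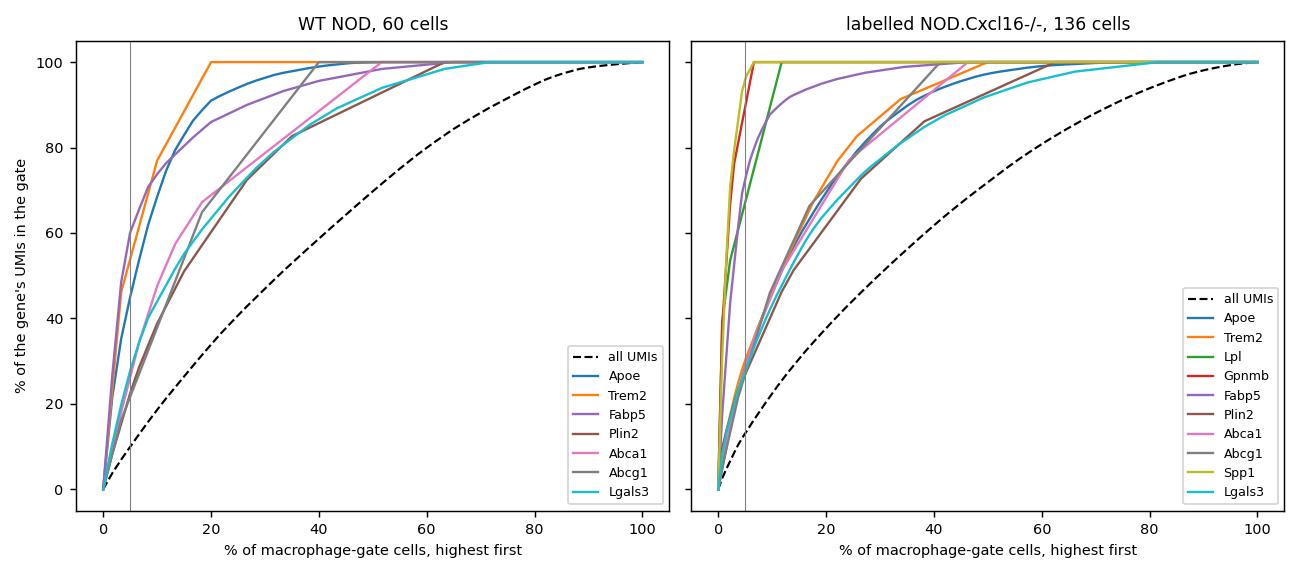
Cumulative share of a gene's UMIs (y axis, %) against the share of macrophage-gate cells taken from the highest down (x axis, %), for members with at least 20 UMIs; the dashed line is the same for all UMIs and the grey line marks 5% of cells. Fabp5 reaches 60.1% and 73.3% at that line, and Apoe 45.0% in the WT NOD library against 29.4% in the other.

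The overlap of members within cells varied by pair and by library. Of the cells with Trem2, 10 of 12 in the WT NOD library and 55 of 68 in the other also held Apoe, where 31 of 60 and 103 of 136 of all gate cells did. The 2 shares were near each other in the library labelled NOD.Cxcl16-/-, and the WT NOD share rests on 12 cells. Log levels of Trem2 and Apoe had a Pearson r of 0.26 over the 60 and 0.30 over the 136 cells. For Trem2 and Plin2 r was 0.15 and 0.35, and for Trem2 and Fabp5 -0.01 and -0.23, so neither pair had a like value in both libraries. The highest r of each library was 0.50 for Fabp5 and Lgals3 in the WT NOD library, against 0.12 in the other, and 0.53 for Gpnmb and Fabp5 in the library labelled NOD.Cxcl16-/-, where 8 of the 9 cells with Gpnmb held Fabp5. Those 9 cells held Fabp5 at 6078 CPM and Lyz2 at 24736 CPM, against 408 and 6639 CPM in the other 127 cells. In the WT NOD library the 4 cells with Gpnmb held Lyz2 at 16030 against 9275 CPM and Fabp5 at 888 against 712 CPM. A single cell of the library labelled NOD.Cxcl16-/- held the highest count of 6 members at once, with 18 UMIs of Trem2, 11 of 28 of Lpl, 18 of 58 of Spp1, 23 of Plin2, 5 of Abcg1 and 77 of Lgals3. That cell was singled out after its values were seen.

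Transcripts of the islet hormone genes Ins1 and Ins2 were also counted in these cells, and very unevenly. Cells with Trem2 held them at 20450 CPM against 8136 CPM in cells without in the WT NOD library, but 1 cell held 2684 of the 2811 UMIs, and the 9 cells with Trem2 outside the 3 highest stood at 1389 CPM. In the other library the levels were 14654 against 8026 CPM, and the median cell stood at 1923 against 159 CPM. The 4 WT NOD cells with Gpnmb held 1 insulin UMI in all and the 9 of the other library 73, where their median cell stood at 86.7 CPM against 643 CPM in cells without. These correlations and contrasts are over cells of 1 library each and share its depth, and the part of free or engulfed islet RNA in them was not tested.

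**Figure D3:**
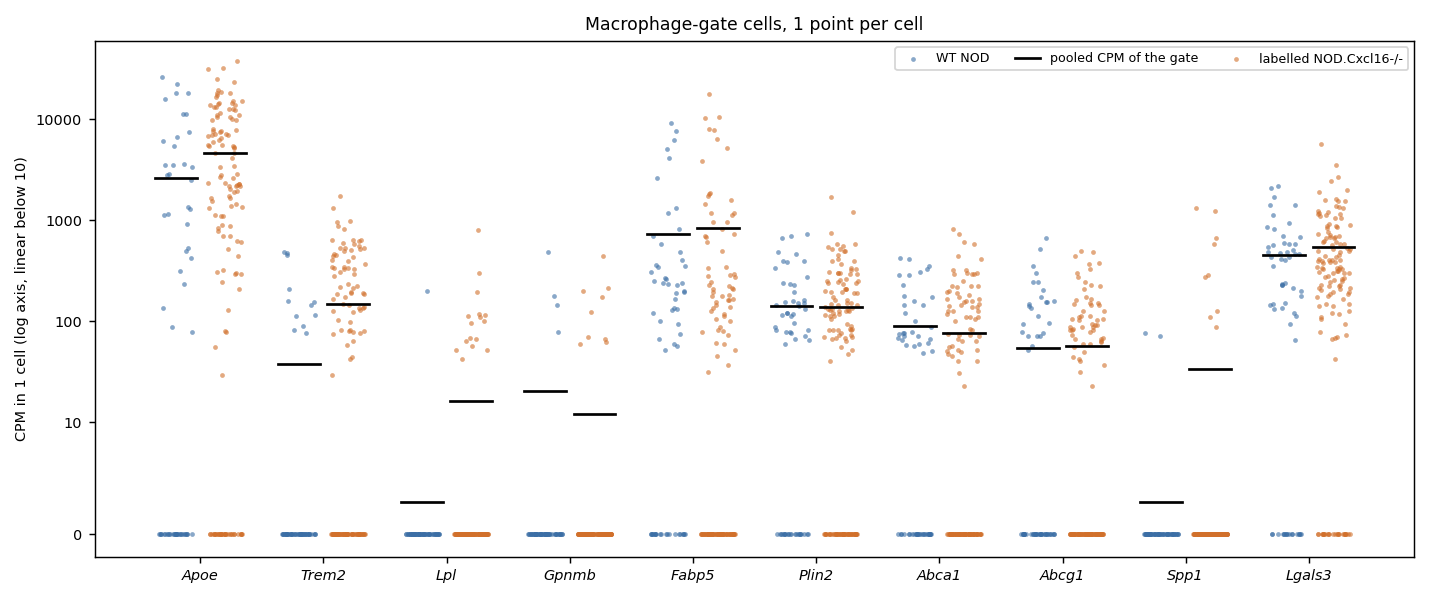
Level of each gene in every macrophage-gate cell (CPM, log axis that is linear below 10), 60 cells of the WT NOD library (blue) and 136 of the library labelled NOD.Cxcl16-/- (orange), with the pooled level of the gate as a black bar. The pooled Apoe level of 2645 CPM in the WT NOD library lies above a median cell of 82.6 CPM, and the pooled Fabp5 level of 832 CPM in the other library rests on a few cells near the top, the highest at 17797 CPM.

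Between the libraries, Trem2 was the member that differed most among those with at least 20 CPM on average in the macrophage gate. The library labelled NOD.Cxcl16-/- held 3.89 times as much of it (2.59 to 6.07). The log2 difference was 1.93 with 1 CPM added. Intervals printed with log2 values, here 1.37 to 2.60, are those of the ratio without the added CPM. Trem2 was the 1 of 7 such members past 2-fold higher, where 1.87% of 5081 genes were. Of the 7, 0 were 2-fold lower, where 1.91% of genes were. Trem2 stayed past 2-fold under all 13 alternative settings, at 1.54 to 2.48. In the mixed C1q-high barcodes it stood at 18.6 and 49.9 CPM, a log2 difference of 1.37 (1.17 to 1.68). Cells with a Trem2 UMI numbered 4 of 55 and 28 of 131 at 2000 UMIs, 7.27% (2.02 to 17.6) and 21.4% (14.7 to 29.4). Ins2 was counted in 43.3% and 80.1% of macrophage-gate cells, against 7.30% and 33.1% of T-gate cells, and its level in the macrophage gate was 6523 and 7609 CPM. The summed level of the 8 genes of a classical monocyte list was 898 and 379 CPM, with 7 of the 8 detected and Chil3 at 0 in both libraries. The part of either in the Trem2 and Apoe differences was not tested.

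Apoe was 1.75 times as high there (1.66 to 1.84), a log2 difference of 0.80 (0.73 to 0.88). This value rested on few WT NOD cells: without the 5% of cells with the most Apoe UMIs in each library it was 1.21, past 2-fold. With the highest doublet scores removed it was 1.18, but this took cells from the WT NOD gate only, leaving 49 of 60 and 136 of 136. With at most 1 UMI of other lineages it was 1.21, and with gates that ignored other lineages 0.43. Spp1 (log2 3.14, 1.61 to 6.61) and Lpl (2.14, 0.49 to 5.59) were higher too. Their ratios without the added CPM were 11.5 and 5.57. Both had 2 UMIs in the WT NOD library and were under the level filter. Without the top 5% of its cells, Spp1 stood at a log2 difference of 1.15. Fabp5 (0.20, 0.05 to 0.35; 1.15-fold) and Lgals3 (0.26, 0.07 to 0.44; 1.19-fold) differed less. The intervals of Gpnmb (-1.79 to 0.34), Plin2 (-0.39 to 0.31), Abca1 (-0.68 to 0.24) and Abcg1 (-0.48 to 0.66) spanned 0. The median over the 7 members was 0.20, against -0.04 over the 5081 genes.

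**Figure D4:**
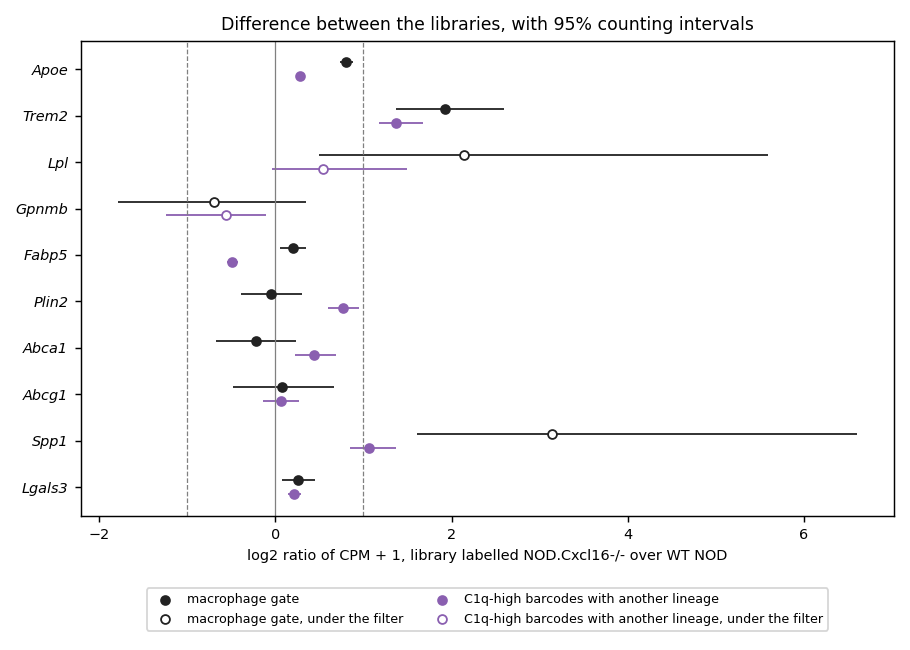
Log2 ratio of the 2 libraries, labelled NOD.Cxcl16-/- over WT NOD (x axis, 1 CPM added), with counting intervals of the ratio without the added CPM. Black marks the macrophage gate and purple the C1q-high barcodes with another lineage. Open points have a mean under 20 CPM and dashed lines mark 2-fold. Trem2 lies past 2-fold in both, and Fabp5, Plin2 and Abca1 take opposite signs in the 2 sets.

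Other genes of the lipid machinery were compared in the macrophage gate in the same way. Of 66 genes in 7 lists of lipid uptake, lysosomal breakdown, storage, efflux, fatty acid use, TREM2 signalling and lipid-associated macrophages, 41 had at least 20 CPM, and 0 of these were 2-fold higher or lower, with a median log2 difference of -0.03. Among genes under that level, 4 had intervals off 0 and a log2 difference past 1, chosen here after their values were seen. Igf1 (-2.36, -5.44 to -0.91; 9 and 3 UMIs), a growth factor gene, and Apoc1 (-2.21, -5.29 to -0.69; 8 and 3 UMIs), an apolipoprotein gene, were lower in the library labelled NOD.Cxcl16-/-. Abca9 (1.72, 0.40 to 3.83; 4 and 37 UMIs), a lipid transporter gene, and Cd33 (1.16, 0.13 to 2.52; 8 and 47 UMIs), an inhibitory receptor gene, were higher. Tyrobp, the adaptor through which TREM2 signals, stood at 1921 and 2100 CPM, and Ms4a6d, a membrane protein of the same list, at 446 and 374 CPM. The scavenger receptor Msr1 (63.9 and 52.6 CPM) and the phagocytic receptor Axl (106 and 79.8 CPM) led the uptake list. Psap (1764 and 1562 CPM) and Npc2 (1331 and 1345 CPM), which serve lysosomal lipid breakdown and cholesterol export from lysosomes, led the lysosomal list. Soat1, which esterifies cholesterol for storage, stood at 88.7 and 104 CPM, and Hilpda, a lipid droplet protein, at 71.2 and 86.8 CPM. Nr1h3, the liver X receptor of macrophages, stood at 156 and 119 CPM, and Nceh1, a cholesterol ester hydrolase, at 78.5 and 82.7 CPM. The acyl-CoA synthetases Acsl1 (78.5 and 110 CPM) and Acsl4 (30.5 and 44.0 CPM) led the fatty acid list, and the lysosomal genes Ctsz (1981 and 1934 CPM) and Cd63 (709 and 792 CPM) the last.

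Among T cells, Spp1 came from a small set. It was detected in 122 of 6849 and 147 of 5101 T-gate cells (1.78% and 2.88%), 0.201 and 0.112 times as many as its UMIs shared by depth would reach. The 11 and 12 highest cells held 50% of the UMIs, and no barcode held over 13.9%. At 2000 UMIs per cell, 38.5% of the 52 WT NOD cells with Spp1 held Cd4 and 7.69% held Cd8a, against 15% and 24.4% of the cells without. In the other library 40.0% of 100 such cells held Cd4 and 3.00% Cd8a, against 17.3% and 20.5%. Penk, which encodes an enkephalin precursor, was in 19.2% and 20% of cells with Spp1 against 4.62% and 4.38%, and Nrn1 in 23.1% and 38.0% against 5.50% and 7.77%. The level of Spp1 over the T gate was 15.4 CPM (14.3 to 16.6) and 47.2 CPM (45.0 to 49.4), a ratio of 3.06. Without the 11 and 12 highest cells the level was 7.43 and 23.1 CPM, a ratio of 3.10. The 11 and 12 highest cells also held macrophage markers at 231 and 182 CPM, against 40.1 and 39.4 CPM in the other T-gate cells, and Lyz2 at 1466 and 325 CPM against 73.6 and 62.2 CPM. The part of RNA from other cells in the Spp1 values was not tested. Cd4, Cd8a, Penk, Nrn1 and Lyz2 were chosen after their values were seen.

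Among B cells, Apoe was held by a subset of like size in both libraries. It was detected in 251 of 1816 and 363 of 2030 cells (13.8% and 17.9%), and at 2000 UMIs in 11.1% and 13.4%, against 1.37% and 1.5% of T-gate cells. The 39 and 60 highest cells held 50% of the UMIs. In those cells Ighd, which marks naive B cells, stood at 29.0 and 22.6 CPM against 446 and 375 CPM in the other B cells, and Fcer2a (CD23) at 10.9 and 49.8 CPM against 221 and 216 CPM. The switched heavy chain genes Igha (214 and 186 CPM against 25.1 and 40.0 CPM) and Ighg2b (569 and 430 CPM against 98.4 and 159 CPM), and Zbtb32 (105 and 45.3 CPM against 14.6 and 17 CPM), were higher. The macrophage markers stood at 21.8 and 47.6 CPM there, against 19.4 and 32.2 CPM in the other B cells. Abca1 in B cells was spread instead, in 381 and 428 cells, 0.907 and 0.942 times the number that sharing by depth would reach. The genes contrasted here were chosen after their values were seen.

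At equal depth, T-gate cells with Fabp5 held more cell cycle transcripts than those without. The 156 and 117 highest cells held 50% of the Fabp5 UMIs of the T gate at median depths of 29344 and 32476 UMIs, against 4180 and 4768 UMIs in the others. Cells were ranked here by raw UMIs, which favours deep barcodes, and the same ranking of Lgals3 gave medians of 13855 and 15105 UMIs. At 2000 UMIs per cell, 12.2% and 13.0% of cells with Fabp5 held Mki67, a gene of dividing cells, against 4.89% and 4.64% of cells without. A list of 6 cell cycle genes, Mki67 among them, stood at 883 and 685 CPM against 315 and 221 CPM.

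**Figure D5:**
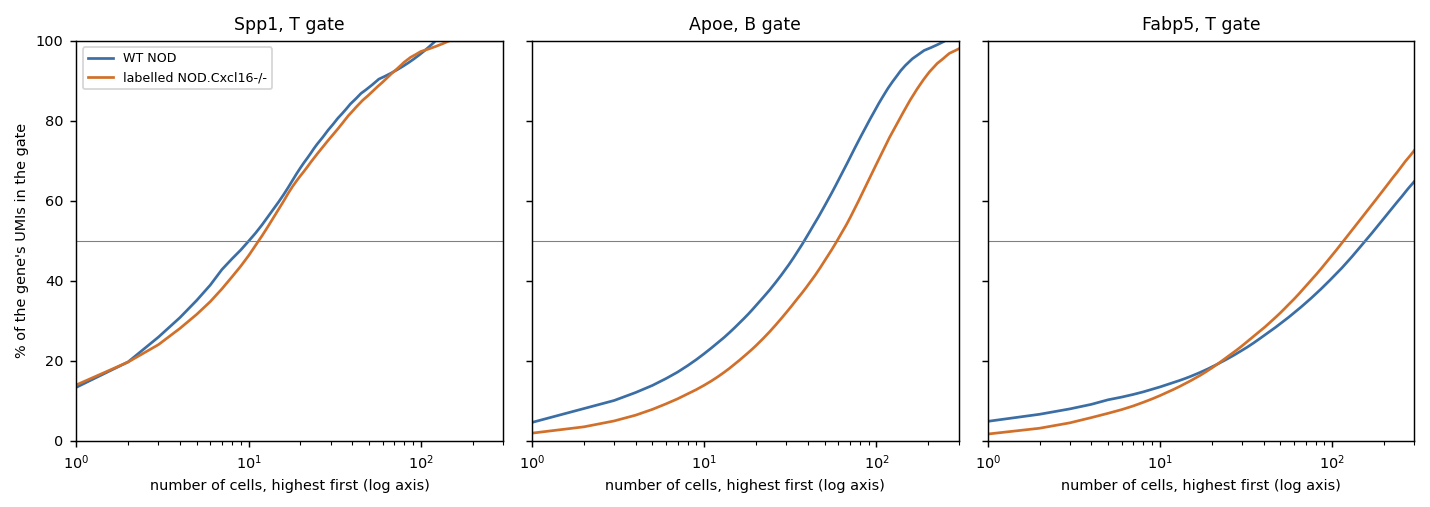
Cumulative share of a gene's UMIs (y axis, %) against the number of cells taken from the highest down (x axis, log scale), for Spp1 in T, Apoe in B and Fabp5 in T cells of the WT NOD library (blue) and the library labelled NOD.Cxcl16-/- (orange). The grey line marks 50%, reached by 11 and 12 cells for Spp1, 39 and 60 for Apoe and 156 and 117 for Fabp5.

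Over 20 points, the 10 gates with at least 30 cells in each of the 2 libraries, which leaves out monocytes and ILC2, the gene whose log level was most like that of Apoe was Abca1 (Pearson r 0.91), followed by Ccl8 (0.86) and C1qb (0.85). Trem2 was most like C3ar1 (0.995), Itgb5 (0.98) and Klra2 (0.98). It stood under 1 CPM in these gates except macrophages, and 10 CPM was added before the log. Its values of r therefore rest mainly on the macrophage points of the 2 libraries. Plin2 was most like Acvrl1 (0.96), Fnip2 (0.96) and Rab32 (0.94). Lgals3 was most like Skil (0.93), Tyrobp (0.92) and Capns1 (0.92), Abcg1 most like Cux1 (0.92), Ttc28 (0.91) and Secisbp2 (0.90), and Abca1, after Apoe, most like Fcgr2b (0.86) and Dok3 (0.84). Fabp5 was most like Plcl1 (0.91), Usp18 (0.90) and Anxa3 (0.90), and Spp1 had its closest match at 0.75 (Atp5b), before Trim28 (0.74). For Lpl (Dab2 0.91, Mmp12 0.88, Dcstamp 0.85) and Gpnmb (Msr1 0.91, Ifna2 0.90, 4930430E12Rik 0.89) the levels are near the floor of counting, and Ifna2 has near-identical relatives among which reads can be split. The points share libraries and depth, so these values describe likeness and have no test.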

How the data were processed

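The authors' deposited matrices hold raw counts, whole numbers of UMIs per gene and cell barcode, made with Cell Ranger 7.0.1, per the file headers, on build mm10, per the submitters' processing notes. The annotation release and the counting of intronic reads are not given in the sources used here. Depth was 93553185 and 98681133 UMIs over 13859 and 10554 barcodes, and no barcode had fewer than 500 UMIs.

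Barcodes with at least 500 genes and at most 10% mitochondrial UMIs were kept. Gates used sums of marker UMIs. Their thresholds, and the split of the dendritic gates, were set after marker distributions were seen. No doublet caller was run in the reported values, and barcodes over a gate's limits for markers of other lineages were left out. The 10 members, the gene lists and the marker lists were chosen with earlier results of these data known. UMIs were summed per gate and scaled to its total. CPM carry exact Poisson intervals, shares exact Clopper-Pearson intervals, and ratios exact conditional binomial intervals. Log2 ratios have 1 CPM added to each level, while their intervals are those of the ratio without it. A level of 0 is given the limit of 3 counts. Folds between libraries were counted among genes with a mean of 20 CPM. By rule, the 3 genes most alike per member and the 2 highest per list are named. Other genes named are markers, or were chosen after their values were seen. For Spp1, 1 of the 3 is not reported here. Alternatives included other barcode filters, gates, scalings, thinning to 2000 UMIs, doublet removal and leaving out the highest cells. Gene coordinates are from GENCODE M21 (GRCm38). Python 3.11.15, numpy 2.4.6, scipy 1.17.1, pandas 2.3.3, scikit-learn 1.9.0 and matplotlib 3.10.9 were used.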

Additional observations from a re-analysis of the deposited data

Results flagged for a closer look

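Apoe went opposite ways in macrophages and monocytes: the log2 difference of the library labelled NOD.Cxcl16-/- from the WT NOD library was 0.80 in the macrophage gate and -3.85 in the monocyte gate. With 1 library per group the difference between these was not tested. In the WT NOD library 35 of the 56 monocyte UMIs came from 1 of 24 barcodes, and without it the level was 102 CPM instead of 258 CPM.

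Fabp5 likewise stood at 0.20 in the macrophage gate and at -2.05 in the dendritic cells with Cd209a or Clec10a, from 610 to 146 CPM, and this difference was not tested either. In the WT NOD library 114 of the 300 UMIs came from 1 of 39 barcodes, which also held 24 UMIs of Ccr7, a gene of migratory dendritic cells. Without it the level was 389 CPM.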

How the results depend on the processing

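Of 130 ratios of single members in the macrophage gate under alternative settings, 110 stayed within the counting interval of the reported value and 20 moved outside it. For Lpl (0.49 to 5.59) and Spp1 (1.61 to 6.61) this interval was wide, so staying within it says little. Only Trem2 had a 2-fold difference above the level filter that could reverse, and it kept its sign under all 13 settings. Of 58 counts of members, 47 stayed within 1.5 times and 11 moved. The 1 member past 2-fold between the libraries became 2 without the other-lineage exclusion (263 and 537 cells). The count was also 2 with the highest doublet scores removed (49 and 136 cells, so only WT NOD cells were dropped) and without the top 5% of cells of each gene. It was 3 with no level filter, and 3 with a limit of 1 UMI of other lineages, a setting chosen after seeing the data. Trem2 was among them each time. The 3 members highest in the macrophage gate in both libraries became 5 with double the marker UMIs and 1 without the exclusion. The 4 concentrated members of the library labelled NOD.Cxcl16-/- became 1 after thinning, and the 2 of the WT NOD library became 1 after thinning, with double marker UMIs and with the limit of 1 UMI. The cause of these changes was not tested, except that thinning leaves fewer UMIs. The minimum of 20 UMIs was kept after thinning, so members could leave that count by the rule alone. Fabp5, Plin2, Abca1 and Abcg1 changed sign between libraries under 3 of 13 settings each, always under 2-fold. The 5 members past 4-fold over the lymphoid gate were 4 to 6 under every alternative. No paired analysis was possible because each group has 1 library. At 60 and 136 macrophages, Lpl, Gpnmb and Spp1 are limited by counting.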

Other observations

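Some Apoe and Fabp5 values of other gates also rest on few barcodes. In plasma cells Apoe stood at 15.2 and 68.0 CPM, with 23 of 24 and 157 of 193 UMIs in 1 barcode of each library. In T cells of the WT NOD library 204 of 646 Apoe UMIs lay in 1 barcode with 70 UMIs of Lyz2 and 0 of Cd3e. In the cDC1 gate Fabp5 stood at 23.2 and 105 CPM, and 67 of the 112 UMIs of the second value lay in 1 of 52 barcodes, without which it was 43.5 CPM. Lgals3 in migratory dendritic cells stood at 397 and 257 CPM, and Plin2 in the mixed C1q-high barcodes at 42.2 and 72.4 CPM. These values have no replicate.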
